A study of Homo sapiens with 8 samples.

Results

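The protein-coding genes of the mitochondrial respiratory chain and ATP synthase were examined in CFPAC-1 cells with and without an ADRA2A transgene. Members were chosen by name: the NDUFA, NDUFB, NDUFC, NDUFS and NDUFV genes, SDHA to SDHD, all UQCR genes, COX4 to COX8, all ATP5 genes and the mitochondrially encoded MT-ND, MT-CO, MT-CYB and MT-ATP genes, with pseudogenes left out. This gave 100 of the 58870 genes in the table, 87 encoded in the nucleus and 13 in the mitochondrial genome. Read to the letter, the test for pseudogene names would also drop MT-ATP6 and MT-ATP8 and leave 98, and both were kept because they are genes. CFPAC-1 is an established human pancreatic ductal adenocarcinoma line. The comparison was of 4 samples with the empty vector and 4 in which a transgene raised ADRA2A, the gene of the alpha-2A adrenergic receptor. All cells were grown without drug for 72 hours in the same medium before RNA was taken for bulk sequencing. The promoter of the transgene and the number of clones behind each line are not given in the sources used here, nor is it stated whether the 4 samples of a group were separate cultures, so the p-values measure the spread between these samples alone, which may be technical.

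The respiratory chain passes electrons from NADH (complex I) and succinate (complex II) through coenzyme Q, complex III and cytochrome c to oxygen at complex IV, and complex V uses the resulting proton gradient to make ATP. Complexes I, III, IV and V are assembled from subunits of both genomes, while complex II is wholly nuclear. The mitochondrial subunits are cut from long transcripts read from the heavy strand of the circular genome, apart from MT-ND6, which lies on the light strand. The nuclear subunit genes are spread over many chromosomes and are known targets of the transcription factors NRF1 and GABPA and of the coactivator PGC-1alpha, the product of PPARGC1A.

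Libraries held 14427035 to 17528915 estimated counts. ADRA2A had 0 counts in each empty-vector library and 112, 142, 154 and 172 counts in the ADRA2A libraries. Of 9 ductal epithelial markers, 8 passed the filter on low counts, with KRT8, KRT19 and KRT18 the most abundant, while CFTR did not. Of those 8, 7 were called, 3 higher (MUC1 0.79, KRT19 0.20 and EPCAM 0.11, as log2 differences between ADRA2A and empty vector) and 4 lower (KRT7 -0.43, CDH1 -0.33, SOX9 -0.21 and KRT18 -0.09). The 17 markers of leukocytes, endothelium, fibroblasts and acinar or islet cells summed to between 199 and 214 CPM (counts-per-million) in the empty-vector libraries and between 222 and 238 CPM in the ADRA2A libraries. Of these, CD3E, GCG and INS were at 0 in every library, and LYZ, CD68, PECAM1 and COL1A1 passed the filter. LYZ (1.496), CD68 (0.319) and PECAM1 (1.663, at 9 to 18 counts with empty vector) were called higher and COL1A1 (-1.715) lower. The pooled sum therefore joins shifts in opposite directions. The leukocyte markers summed to between 119 and 132 CPM with empty vector and between 197 and 210 CPM with ADRA2A. The fibroblast markers summed to between 76.9 and 80.9 CPM with empty vector and between 22.6 and 25.7 CPM with ADRA2A. The part of these genes in the results was not tested. In bulk RNA, fewer cells expressing a gene and less RNA per cell cannot be told apart.

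Respiratory chain genes moved little. Of the 94 members that passed the filter, 25 were called (adjusted p under 0.05, edgeR's quasi-likelihood test with Benjamini-Hochberg adjustment over all 14785 genes tested), 12 higher and 13 lower in ADRA2A cells. That is 26.6% of the members, against 42.7% of all genes tested. For each direction the share of all genes was 21.6% higher and 21.1% lower. For 23 members every library of one group lay above every library of the other, 11 higher and 12 lower, against 39.2% of all genes (19.7% higher and 19.5% lower). Fold changes are given as log2 differences, ADRA2A minus empty vector. They ran from -0.39 (NDUFV2) to 0.32 (ATP5MC2), so no member reached 0.5 in either direction, a size that 12% of all genes passed together with the threshold on p. The median absolute log2 difference was 0.078 over the members and 0.177 over all genes tested. Members were measured with a median standard error (SE) of 0.050, against 0.074 over all genes. Among the 11685 other genes with levels inside the range of the nuclear members, 46.7% were called, with a median absolute log2 difference of 0.154 and a median SE of 0.063.

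Calls were spread over all 5 complexes and fell in both directions. Among the nuclear members tested, complex I had 5 higher and 4 lower of 37 (24.3% called, against 42.7% of all genes tested). Complex II had 1 higher and 0 lower of 4 (25.0%), and complex III had 1 higher and 3 lower of 9 (44.4%). Complex IV had 2 higher and 1 lower of 12 (25.0%), and complex V had 2 higher and 3 lower of 19 (26.3%). For each complex the summed level of its nuclear members overlapped between the groups. The sum for complex I was 2131 ± 29.3 CPM (SD, n = 4) with empty vector and 2125 ± 78.1 CPM (SD, n = 4) with ADRA2A, and the sum for complex V was 2899 ± 66.1 and 2816 ± 131 CPM (SD, n = 4).

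**Figure D1:**
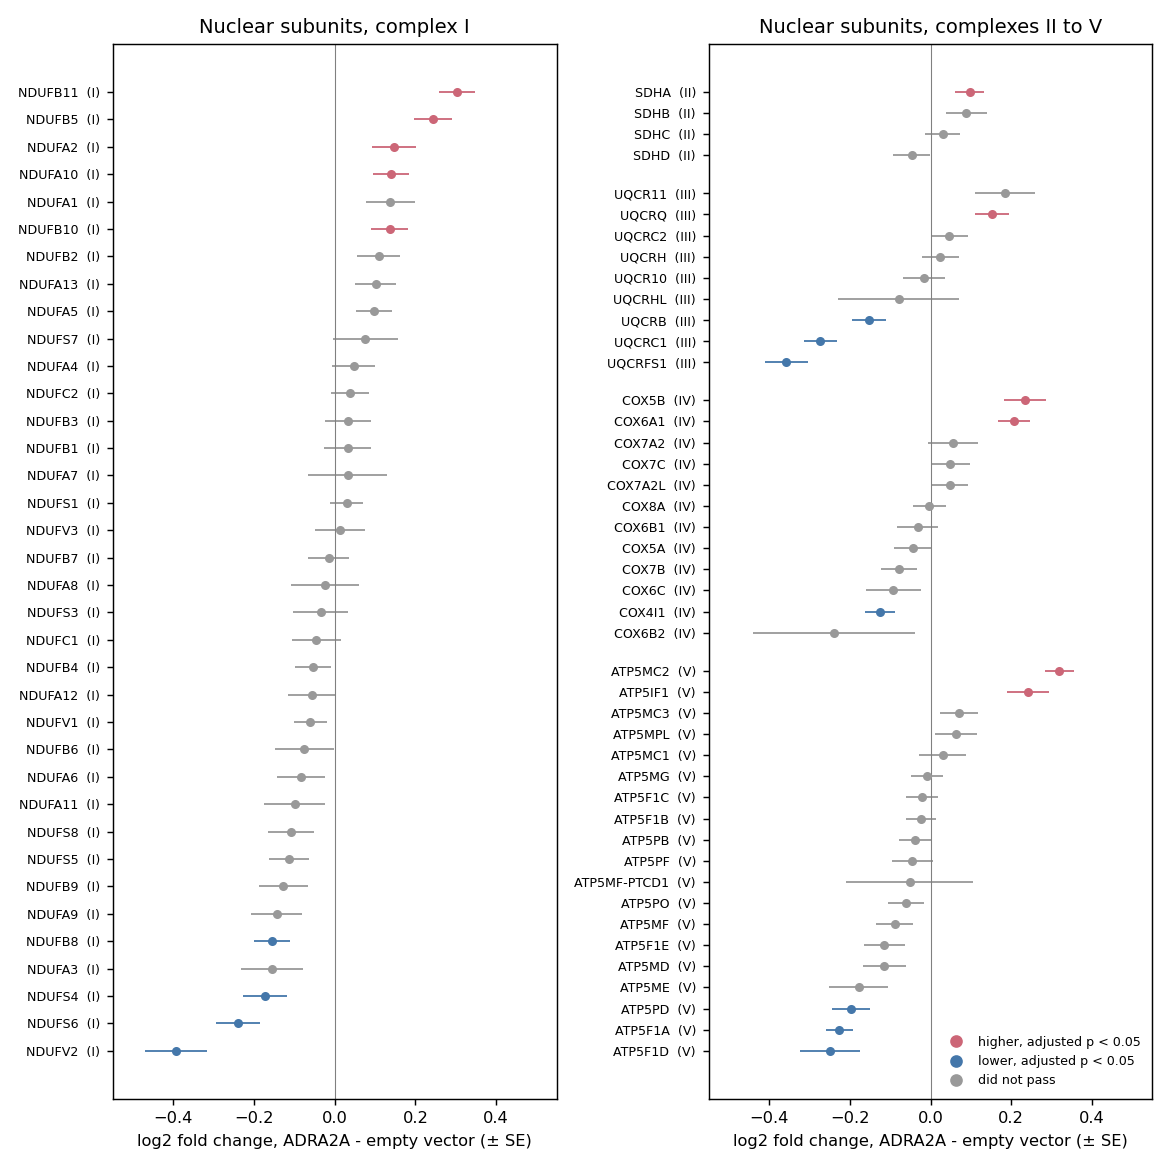
Log2 fold change (ADRA2A minus empty vector, x axis) of the nuclear members tested that are reported singly, with the standard error as a bar; the left panel holds complex I and the right panel complexes II to V. Coloured points passed the threshold (11 higher, 11 lower) and grey points did not. All points lie between -0.39 and 0.32.

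The mitochondrially encoded members were by far the most abundant. Divided by transcript length, their median with empty vector was 2072 CPM per kilobase, from 106 for MT-ND6 to 6785 for MT-CO1. On the same scale the nuclear members had medians of 59.8 for complex I, 73.5 for complex II, 47.8 for complex III, 93.5 for complex IV and 130 for complex V, with ATP5F1B, the catalytic beta subunit, highest at 386 CPM per kilobase. Nuclear values on this scale depend on the length of the 1 reference transcript used per gene.

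The share of all counts that came from the 13 mitochondrial members did not separate the groups. It was 3.51%, 3.58%, 3.53% and 3.40% in empty-vector replicates 1 to 4 and 3.37%, 3.47%, 3.47% and 3.69% in ADRA2A replicates 1 to 4. The groups overlapped, with means of 3.50% ± 0.078 and 3.50% ± 0.136 (SD, n = 4). The 87 nuclear members took 0.723% ± 0.009 and 0.715% ± 0.027 of the counts (SD, n = 4). ADRA2A replicate 4 stood at an edge in both: it had the highest mitochondrial sum of the 8 libraries, 36807 CPM, and the lowest nuclear sum, 6892 CPM. Within the ADRA2A group it was the highest library for 13 of 13 mitochondrial members, and ADRA2A replicate 1 was the lowest for 12 of 13.

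Of the 13 mitochondrial members, 1 was called higher and 2 lower (23.1%, against 42.7% of all genes tested). MT-CO2 (chrM:7586-8269, plus strand), subunit 2 of cytochrome c oxidase, which takes electrons from cytochrome c, was the clear case. Its level was 3514, 3761, 3770 and 3599 CPM with empty vector and 3016, 3029, 3034 and 3052 CPM with ADRA2A. Every ADRA2A library lay below every empty-vector library, and the 4 ADRA2A libraries were nearly equal. The log2 difference was -0.27 (SE 0.027, edgeR adjusted p = 1.33e-07), and it lay between -0.29 and -0.26 under 17 alternatives, all of them past the threshold. Set against MT-CO1 in the same library, MT-CO2 stood at ratios of 0.336, 0.342, 0.359 and 0.362 with empty vector and 0.279, 0.268, 0.280 and 0.255 with ADRA2A. Set against MT-CO3, the ratio was 0.844 ± 0.020 and 0.713 ± 0.023 (SD, n = 4). Both ratios separated the groups, so MT-CO2 was lower relative to MT-CO1 and MT-CO3 too. The ratio of MT-CO3 to MT-CO1 also separated them, by a narrow gap (lowest 0.403 with empty vector, highest 0.402 with ADRA2A).

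MT-CO1 (chrM:5904-7445), the subunit that holds the site of oxygen reduction, was called higher by a small step. It measured 10444, 10982, 10491 and 9932 CPM with empty vector and 10801, 11315, 10831 and 11986 CPM with ADRA2A. The groups overlapped in range (log2 difference 0.10, SE 0.033, edgeR adjusted p = 0.0181). The call was lost without empty-vector replicate 4 (0.078, edgeR adjusted p = 0.0920), without ADRA2A replicate 4 (0.070, edgeR adjusted p = 0.0752) and with upper quartile factors (0.085, edgeR adjusted p = 0.0517). MT-CO3, the third catalytic core subunit, had a log2 difference of -0.03 (edgeR adjusted p = 0.505).

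The 7 mitochondrial subunits of complex I form its proton-pumping membrane arm. MT-ND4 (chrM:10760-12137) was called lower. It measured 4177, 4170, 4062 and 3955 CPM with empty vector and 3659, 3778, 3810 and 4009 CPM with ADRA2A. The ADRA2A libraries were lower apart from replicate 4, which lay above 1 empty-vector library (log2 difference -0.10, SE 0.030, edgeR adjusted p = 0.00947). Without ADRA2A replicate 1 the call was lost (-0.080, edgeR adjusted p = 0.0545). MT-ND1 (0.07), MT-ND2 (0.04), MT-ND3 (0.08) and MT-ND5 (0.00) did not pass, nor did MT-ND4L (-0.12) and MT-ND6 (-0.13). The groups overlapped for all 6. Values of the less abundant genes moved with single libraries. Without ADRA2A replicate 4, MT-ND6 was at -0.28 (edgeR adjusted p = 0.0147) and MT-ND4L at -0.20 (edgeR adjusted p = 0.00802), both called. MT-ND6 was at -0.019 without empty-vector replicate 3, and MT-ND4L at -0.037 without ADRA2A replicate 1. With all libraries and no filter beyond 1 count, MT-ND4L was also called lower (-0.12, SE 0.038, edgeR adjusted p = 0.00919). MT-ND1 was called without ADRA2A replicate 1 (0.09, edgeR adjusted p = 0.0314). MT-CYB, the mitochondrial core subunit of complex III, had a log2 difference of 0.02, and MT-ATP6 and MT-ATP8, which sit beside the rotating c-ring of complex V, had -0.04 and -0.06, none past the threshold. MT-ATP8 was called lower without ADRA2A replicate 4 (-0.20, edgeR adjusted p = 0.0217) and stood at 0.034 without ADRA2A replicate 1. The count of mitochondrial members called lower was 1 without ADRA2A replicate 1 and 5 without ADRA2A replicate 4. The higher count was 0 without empty-vector replicate 4 or ADRA2A replicate 4 and 2 without ADRA2A replicate 1.

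**Figure D2:**
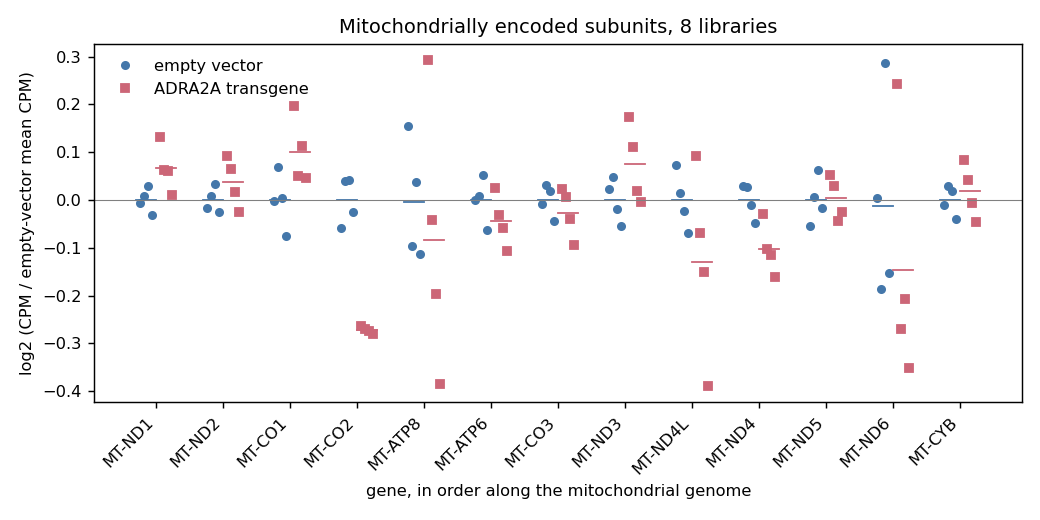
Level of each of the 13 mitochondrially encoded members in each library, as log2 of its CPM over the empty-vector mean CPM (y axis), in gene order along the mitochondrial genome (x axis). Circles are empty-vector and squares ADRA2A libraries (n = 4 each), and short lines are means of the plotted values. MT-CO2 is the 1 gene whose groups do not overlap.

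Some mitochondrial genes share bases, and the use of strand in counting is not given in the sources used here. The end of MT-ATP8 is also the start of MT-ATP6 over 46 bases (chrM:8527-8572 of hg38, plus strand), so a read inside them fits both genes. In the following line the capitals are those shared bases.
MT-ATP8 and MT-ATP6 overlap: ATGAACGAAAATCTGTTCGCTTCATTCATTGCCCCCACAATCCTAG
MT-ND4L and MT-ND4 share 7 bases, in capitals in the stretch chrM:10745-10781.
MT-ND4L and MT-ND4 overlap: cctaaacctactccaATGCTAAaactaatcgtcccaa
MT-ND6 lies opposite RNA of the heavy-strand transcript, so its count of 48.8 to 67.7 CPM with empty vector and 43.5 to 65.8 CPM with ADRA2A cannot be told apart from antisense reads. MT-CO2 shares no bases with another member.

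Reads of mitochondrial genes can also be split with near-identical copies in the nuclear genome. The copy MTCO2P12, on chromosome 1, matches MT-CO2 at 98.0% of aligned bases with 12 mismatches and 2 gaps. It was assigned 0 to 4 counts per library, 0.00141% of its sum with MT-CO2. The copy share was largest for MTATP6P1, 7.82% of its sum with MT-ATP6, and for MTND2P28, 2.56% of its sum with MT-ND2. MTCO1P12 took 0.137% of its sum with MT-CO1. None of the 3 copies that passed the filter was called. The 2 mitochondrial ribosomal RNAs are read from the same strand as most of the 13 members: MT-RNR1 (12S) was called higher at 621 ± 33.5 and 679 ± 15.2 CPM (SD, n = 4, log2 difference 0.13, edgeR adjusted p = 0.00665), although the groups overlapped, and MT-RNR2 (16S) did not pass (0.03, edgeR adjusted p = 0.382).

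Among nuclear members of complex I, the core subunits of the NADH-binding and quinone-binding arms had 1 call in 7. That is 14.3%, against 42.7% of all genes tested. The call was NDUFV2 (chr18:9102630-9134345), an iron-sulfur subunit of the NADH-binding module, which had the lowest log2 difference of all members. It measured 36.7, 36.7, 35.6 and 35.9 CPM with empty vector and 25.6, 33.2, 27.4 and 24.1 CPM with ADRA2A. All ADRA2A libraries were lower, with more scatter than the empty-vector libraries (log2 difference -0.39, SE 0.077, edgeR adjusted p = 3.30e-04). NDUFS1, NDUFS3, NDUFS7, NDUFS8 and NDUFV1 lay between -0.11 and 0.08 with no call.

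The 30 supernumerary subunits of complex I, which surround the catalytic core, held 5 higher and 3 lower calls (26.7%, against 42.7% of all genes). NDUFB11 (chrX:47142071-47145466), a membrane-arm subunit, measured 52.6, 54.1, 55.7 and 51.7 CPM with empty vector and 66.5, 68.4, 64.5 and 65.0 CPM with ADRA2A. All 4 ADRA2A libraries were above the highest empty-vector library (log2 difference 0.30, SE 0.045, edgeR adjusted p = 1.97e-05). NDUFB5 (chr3:179604690-179627647), of the same arm, measured 71.6, 74.4, 77.1 and 76.8 CPM with empty vector and 86.9, 95.2, 83.8 and 89.1 CPM with ADRA2A, again without overlap (0.24, SE 0.047, edgeR adjusted p = 2.97e-04). NDUFA10 rose from 82.7 ± 4.21 to 91.1 ± 2.36 CPM (SD, n = 4, log2 difference 0.14, edgeR adjusted p = 0.0160), a call lost without empty-vector replicate 1 (0.12, edgeR adjusted p = 0.0581) or without empty-vector replicate 4 (0.12, edgeR adjusted p = 0.0629). NDUFA2 (0.15) and NDUFB10 (0.14) were the other 2 higher calls.

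In the other direction, NDUFS6 (chr5:1801407-1816048), a zinc-binding subunit needed late in assembly of the NADH-binding arm, measured 58.2, 54.5, 63.4 and 56.9 CPM with empty vector and 46.2, 52.6, 48.6 and 50.2 CPM with ADRA2A. It was lower in all 4 ADRA2A libraries (log2 difference -0.24, SE 0.055, edgeR adjusted p = 0.00155). NDUFB8, a membrane-arm subunit whose protein is a common marker of assembled complex I, went from 103 ± 2.45 to 92.8 ± 5.25 CPM (SD, n = 4, log2 difference -0.16, edgeR adjusted p = 0.00826), and NDUFS4 was also lower (-0.17, edgeR adjusted p = 0.0149). NDUFA4, counted here with complex I by its name although its protein belongs to complex IV, did not pass (0.05, edgeR adjusted p = 0.514). NDUFA2, NDUFB10 and NDUFS4 are named to complete the calls of complex I, after their values were seen.

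Complex II, succinate dehydrogenase, also belongs to the citric acid cycle. SDHA, its flavoprotein, measured 156, 152, 158 and 160 CPM with empty vector and 164, 174, 168 and 164 CPM with ADRA2A. The groups did not overlap, but the step was small (log2 difference 0.10, SE 0.036, edgeR adjusted p = 0.0357). The call was lost under 7 of 16 alternatives, among them leaving out any 1 of empty-vector replicates 1, 2 or 3 or ADRA2A replicates 2 or 3 (edgeR adjusted p from 0.0511 to 0.111). SDHB, SDHC and SDHD lay between -0.05 and 0.09 with no call.

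Complex III had 2 of its 4 core subunits called, both lower. UQCRC1 (chr3:48599002-48610976), a core protein of the matrix side, measured 98.0, 96.8, 103 and 97.6 CPM with empty vector and 80.6, 82.6, 81.9 and 82.5 CPM with ADRA2A, with a wide gap between the groups (log2 difference -0.27, SE 0.040, edgeR adjusted p = 1.63e-05). UQCRFS1 (chr19:29205320-29213151), the Rieske iron-sulfur protein that passes electrons toward cytochrome c1, measured 71.6, 76.5, 78.0 and 72.8 CPM with empty vector and 60.0, 61.6, 59.7 and 51.9 CPM with ADRA2A. Every ADRA2A library lay below every empty-vector library (-0.36, SE 0.053, edgeR adjusted p = 2.00e-05). The partner of UQCRC1, UQCRC2, had 0.05 and no call. Of the small supernumerary subunits, UQCRB fell from 107 ± 0.903 to 96.7 ± 5.01 CPM (SD, n = 4, log2 difference -0.15, edgeR adjusted p = 0.00673) and UQCRQ rose from 91.4 ± 2.60 to 102 ± 4.77 CPM (0.15, edgeR adjusted p = 0.00792). UQCRH (0.02) and its near-identical copy UQCRHL (-0.08) can share reads, and neither passed. CYC1, the cytochrome c1 subunit that the name rule does not take in, was lower at 57.9 ± 3.13 and 47.6 ± 2.06 CPM (SD, n = 4, log2 difference -0.28, SE 0.052, edgeR adjusted p = 2.06e-04).

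**Figure D3:**
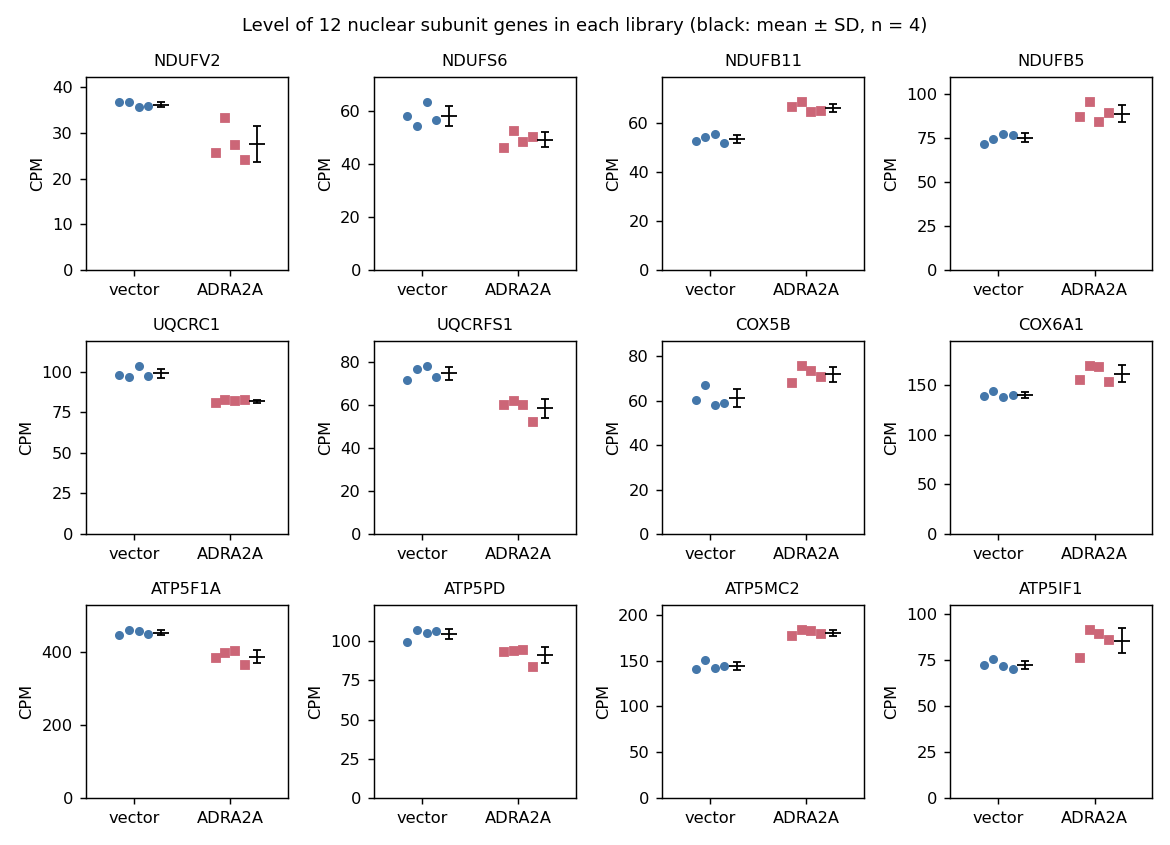
CPM (y axis, from 0) of 12 nuclear members in each library, empty vector as circles and ADRA2A as squares, with the mean and SD (n = 4) in black beside them. Each panel holds 1 gene; the groups do not overlap in any of the 12, and NDUFV2 shows the widest scatter among its ADRA2A libraries relative to its level, from 24.1 to 33.2 CPM.

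Complex IV, cytochrome c oxidase, had 3 calls among its 10 widely expressed nuclear subunits (30.0%, against 42.7% of all genes tested). COX6A1 (chr12:120438090-120440737) measured 139, 144, 138 and 139 CPM with empty vector and 155, 169, 168 and 153 CPM with ADRA2A, all ADRA2A libraries being higher (log2 difference 0.21, SE 0.040, edgeR adjusted p = 3.35e-04). COX5B (chr2:97646062-97648383), a zinc-binding subunit of the matrix side, measured 60.3, 66.8, 58.0 and 59.0 CPM with empty vector and 67.7, 75.4, 73.1 and 70.8 CPM with ADRA2A. The groups were separated by a narrow gap (0.23, SE 0.052, edgeR adjusted p = 0.00101). COX4I1, the regulatory subunit that binds ATP, was lower at 195 ± 5.72 and 179 ± 5.54 CPM (SD, n = 4, log2 difference -0.12, edgeR adjusted p = 0.00929). COX7A2L, a factor that joins complexes III and IV, did not pass (0.05, edgeR adjusted p = 0.437).

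The tissue-restricted isoforms of complex IV were nearly silent. COX6A2 and COX7A1, the heart and muscle forms, and the testis forms COX7B2 and COX8C had 0 counts in every library. COX4I2, the form linked to lung and low oxygen, had 1 count in each of ADRA2A replicates 1 and 2 and 0 elsewhere. ATP5MGL, a copy of the membrane subunit ATP5MG, was at 0 too. These 6 members did not pass the filter and were not tested, and a count of 0 allows up to 3 counts per library. COX6B2, the testis form, was detected at 4.03 CPM with empty vector and had no call (-0.24, SE 0.201).

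In complex V the calls fell on different working parts of the enzyme. The c-ring, the rotor in the membrane, is built from 1 mature protein that is encoded by 3 genes. ATP5MC2 (chr12:53632726-53677408) had the highest log2 difference of all members: 141, 151, 142 and 144 CPM with empty vector and 177, 183, 182 and 179 CPM with ADRA2A. All ADRA2A libraries were well above all empty-vector libraries (0.32, SE 0.036, edgeR adjusted p = 6.32e-07). ATP5MC1 (0.03) and ATP5MC3 (0.07), the other two c-ring genes, did not pass.

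The catalytic head and stalk had 2 lower calls of 5 (40.0%, against 42.7% called and 21.1% lower over all genes tested). ATP5F1A (chr18:46080248-46104334), the alpha subunit, measured 447, 461, 458 and 450 CPM with empty vector and 384, 399, 403 and 366 CPM with ADRA2A, with no overlap (log2 difference -0.23, SE 0.034, edgeR adjusted p = 2.38e-05). ATP5F1D, the delta subunit of the stalk, went from 26.6 ± 1.70 to 22.4 ± 1.97 CPM (SD, n = 4, log2 difference -0.25, edgeR adjusted p = 0.0101). The catalytic beta subunit ATP5F1B did not pass (-0.02, edgeR adjusted p = 0.630).

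Of the 4 stator subunits, which hold the head still against the rotor, ATP5PD was lower (log2 difference -0.20, SE 0.046, edgeR adjusted p = 0.00159), at 99.7, 107, 105 and 106 CPM with empty vector and 93.4, 93.7, 94.1 and 83.5 CPM with ADRA2A. ATP5IF1, the inhibitor that stops the enzyme from running backwards and splitting ATP, was higher. It measured 72.5, 75.4, 71.8 and 70.1 CPM with empty vector and 76.0, 91.3, 88.9 and 86.0 CPM with ADRA2A, where replicate 1 lay just above the highest empty-vector library (0.24, SE 0.052, edgeR adjusted p = 8.93e-04). None of the 5 membrane supernumerary subunits tested was called. ATP5MF-PTCD1, a readthrough transcript that shares sequence with ATP5MF, was not called either.

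The position of the nuclear members was set beside their change. For each of the 81 members the median log2 difference of the other genes tested within 5 Mb was taken, members left out. The median over the 81 values was -0.02. Of the 22 called members, 21 had the same sign as their neighbours' median (11 of 11 lower and 10 of 11 higher), and the exception was SDHA (neighbours -0.16). Many of these medians were small: 3 of the 11 lower members had one under -0.1, and 6 of the 11 higher members had one over 0.1. For comparison, 64.6% of the 6275 other called genes had the sign of their neighbours. Among genes without a call, 33 of the 59 members and 56.0% of the 8366 other genes had it. Across the 81 members, Pearson's r between a member and its neighbours was 0.55 and Spearman's rho 0.51, and across 14641 other genes they were 0.16 and 0.24. The sets are unlike, so these values cannot be compared directly. The nuclear members ran from -0.39 to 0.32 with a median SE of 0.051. All genes tested ran from -4.53 to 10.2 with a median SE of 0.074. Other genes at the level of the members were not correlated separately. These are descriptions across genes, which share libraries and chromosomes and are not independent replicates.

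NDUFV2 was the plainest example. Of the 29 genes tested around it on chromosome 18, 28 had a negative log2 difference, and their median of -0.40 matched that of NDUFV2 (-0.39). Around NDUFB11 on the X chromosome, 52 of 64 neighbours were positive with a median of 0.14, beside 0.30 for NDUFB11 itself. NDUFB5 (neighbours 0.14 beside 0.24), ATP5IF1 (0.13 beside 0.24), COX5B (0.13 beside 0.23) and COX6A1 (0.11 beside 0.21) also sat among genes with positive medians. COX4I1 (-0.14 beside -0.12) and ATP5PD (-0.12 beside -0.20) sat among genes with negative ones. The neighbours' medians were far smaller in size than the gene's own change for UQCRC1 (-0.03 beside -0.27), ATP5MC2 (0.07 beside 0.32), UQCRFS1 (-0.10 beside -0.36) and ATP5F1D (-0.05 beside -0.25). Narrower gaps of this kind were seen for NDUFB11 and for others, such as ATP5F1A (-0.08 beside -0.23), NDUFS4 (-0.05 beside -0.17), UQCRB (-0.04 beside -0.15) and NDUFA10 (0.045 beside 0.14). DNA copy number was not measured here.

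**Figure D4:**
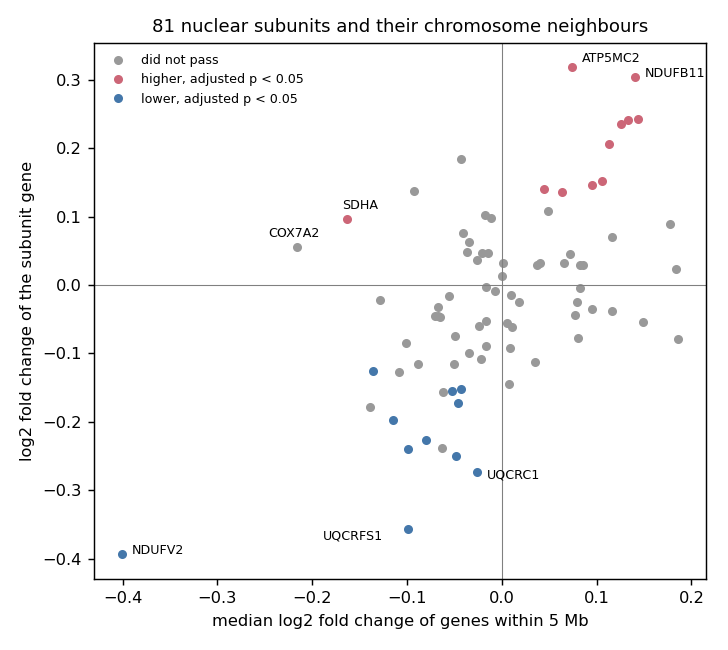
Log2 fold change of each of the 81 nuclear members (y axis) against the median log2 fold change of the other genes tested within 5 Mb of it (x axis). Coloured points are the 22 called members, which lie at the upper right and the lower left apart from SDHA. NDUFV2 sits alone at the lower left, at -0.40 and -0.39.

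Promoters of 67 of the 87 nuclear members were found in the RefSeq table (GRCh38.p14), each running from 250 bases before the start to 50 after it. They were searched on both strands for the letters of known respiratory gene elements. The NRF1 core GCATGCGC was in 13 of 67 (19.4%), against 2.99% of all 34796 promoters. The ETS element CCGGAAG, bound by GABPA, was in 19 (28.4%) against 10.2%, the YY1 element AAGATGGC in 11 (16.4%) against 2.89%, and the cyclic AMP response element TGACGTCA in 5 (7.46%) against 1.84%. The ETS and YY1 letters can overlap at their shared AAG. The NRF1 core was in 3 of 10 higher, 1 of 9 lower and 9 of 45 uncalled members, and the ETS element in 3, 2 and 14 of them. The YY1 element was in 0, 2 and 9, and the cyclic AMP response element in 1, 0 and 4. These are matches of letters only.

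The promoters of the 4 called members that hold the NRF1 core are shown, since both directions of change are among them: ATP5MC2, COX5B and COX6A1 were higher and NDUFS6 was lower. Capitals mark every match to the 4 motifs on either strand (the NRF1 core reads GCGCATGC and the ETS element CTTCCGG on the other strand). ATP5MC2 is chr12:53676034-53676333, minus strand; COX5B is chr2:97645812-97646111, plus strand; COX6A1 is chr12:120437863-120438162, plus strand; NDUFS6 is chr5:1801157-1801456, plus strand.
ATP5MC2: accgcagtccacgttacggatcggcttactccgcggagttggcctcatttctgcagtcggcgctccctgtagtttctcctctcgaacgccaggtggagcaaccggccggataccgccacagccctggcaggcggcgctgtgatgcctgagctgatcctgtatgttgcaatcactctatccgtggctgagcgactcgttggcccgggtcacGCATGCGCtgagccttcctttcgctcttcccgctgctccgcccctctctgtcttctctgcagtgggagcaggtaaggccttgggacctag
COX5B: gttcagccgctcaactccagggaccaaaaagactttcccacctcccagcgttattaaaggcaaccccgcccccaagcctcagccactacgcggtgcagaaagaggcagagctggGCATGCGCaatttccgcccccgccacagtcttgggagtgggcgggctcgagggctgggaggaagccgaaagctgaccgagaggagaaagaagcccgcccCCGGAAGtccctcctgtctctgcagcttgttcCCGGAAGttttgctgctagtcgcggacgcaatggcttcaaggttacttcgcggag
COX6A1: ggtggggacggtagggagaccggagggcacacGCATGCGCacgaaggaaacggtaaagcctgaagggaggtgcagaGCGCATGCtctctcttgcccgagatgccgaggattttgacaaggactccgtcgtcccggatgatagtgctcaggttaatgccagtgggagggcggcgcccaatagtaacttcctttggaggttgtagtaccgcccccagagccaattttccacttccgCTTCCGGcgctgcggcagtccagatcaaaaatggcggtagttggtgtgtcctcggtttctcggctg
NDUFS6: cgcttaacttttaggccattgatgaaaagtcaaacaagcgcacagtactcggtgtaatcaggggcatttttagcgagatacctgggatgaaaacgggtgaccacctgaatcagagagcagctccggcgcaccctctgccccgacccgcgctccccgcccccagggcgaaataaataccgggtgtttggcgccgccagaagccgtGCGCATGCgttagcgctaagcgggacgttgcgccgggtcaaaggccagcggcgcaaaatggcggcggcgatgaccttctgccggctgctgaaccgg
COX6A1 holds the NRF1 core on both strands and COX5B holds 2 ETS elements near its start, while ATP5MC2, with the highest log2 difference, holds a single NRF1 core and no other match.

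Most regulators of these genes had no call. PPARGC1A had the lowest log2 difference of 12 regulators tested. It measured 3.16, 2.65, 2.56 and 3.14 CPM with empty vector and 1.04, 0.396, 0.859 and 0.822 CPM with ADRA2A. The ADRA2A values rest on 15, 6, 15 and 13 counts. Its 4 ADRA2A libraries were all below the empty-vector libraries (log2 difference -1.87, SE 0.275, edgeR adjusted p = 1.54e-05). NRF1 (-0.05, edgeR adjusted p = 0.663), GABPA (-0.10, edgeR adjusted p = 0.140) and ESRRA (0.01, edgeR adjusted p = 0.923) did not pass. The regulators held 1 higher and 2 lower calls in all (25.0%, against 42.7% of all genes tested). The higher one was GABPB2 (0.31, edgeR adjusted p = 0.0264), a call lost without empty-vector replicate 3 or 4 or without ADRA2A replicate 1 (edgeR adjusted p from 0.0647 to 0.121). The second lower one was GABPB1, at 28.9 CPM with empty vector and 24.9 CPM with ADRA2A, without overlap (-0.21, edgeR adjusted p = 0.0125). GABPB1 is named to complete these calls, after its values were seen. TFAM, which packs mitochondrial DNA and starts its transcription, had -0.04 (edgeR adjusted p = 0.490), and POLRMT, the mitochondrial RNA polymerase, -0.02 (edgeR adjusted p = 0.844). Among 28 genes of mitochondrial transcription, replication and RNA stability, 3 were higher and 8 lower (39.3% called, against 42.7% of all genes tested), with a median of -0.09 beside 0.00 over all genes. The smallest p in each direction belonged to MTERF4 (0.23, edgeR adjusted p = 0.0106) and TBRG4 (-0.23, edgeR adjusted p = 6.15e-04).

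Assembly factors build the complexes but are not part of them. The shares called among them lay on both sides of the 42.7% over all genes tested, and the genes named have the smallest p of their list in each direction. For complex I, 1 of 17 was higher and 6 lower (41.2% called, median -0.13). NDUFAF5, which modifies a core subunit, fell from 9.95 ± 0.572 to 6.55 ± 0.931 CPM (SD, n = 4, log2 difference -0.61, SE 0.116, edgeR adjusted p = 2.86e-04), and ACAD9 rose from 45.4 ± 1.97 to 58.9 ± 1.72 CPM (0.38, edgeR adjusted p = 3.52e-06). For complex IV, 1 of 22 was higher and 4 lower (22.7% called, median -0.09). COA5 was higher (0.29, edgeR adjusted p = 0.00189) and PET117 fell from 14.2 ± 1.23 to 8.48 ± 0.950 CPM (-0.75, SE 0.102, edgeR adjusted p = 7.00e-06). For complex III, 1 of 6 was higher and 2 lower. LYRM7, which matures the Rieske protein, was higher (0.31, edgeR adjusted p = 0.00112), and UQCC1 was lower (-0.26, edgeR adjusted p = 5.51e-04).

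The 4 complex II factors had 0 higher and 1 lower call, SDHAF3 (-0.24, edgeR adjusted p = 0.0246), which was lost without empty-vector replicate 3 or 4 or ADRA2A replicate 1 or 4 (edgeR adjusted p from 0.0634 to 0.0836). The 3 complex V factors had 1 each way. ATPAF1 (0.14, edgeR adjusted p = 0.0252) was lost without empty-vector replicate 4 or ADRA2A replicate 1 or 3 (edgeR adjusted p from 0.0740 to 0.0813). TMEM70 (-0.21, edgeR adjusted p = 0.0444) was lost without empty-vector replicate 2, 3 or 4 or ADRA2A replicate 1, 3 or 4 (edgeR adjusted p from 0.0677 to 0.129).

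The mobile carriers between the complexes were also examined. CYCS, cytochrome c itself, measured 155, 152, 164 and 153 CPM with empty vector and 121, 125, 125 and 112 CPM with ADRA2A. It was lower in every ADRA2A library (log2 difference -0.37, SE 0.043, edgeR adjusted p = 8.44e-07). Its list of 6, made up of cytochrome c and subunits outside the name rule, held 1 higher call, HIGD2A, and 2 lower, CYCS and CYC1. HIGD2A (0.16, edgeR adjusted p = 0.0193) lost its call without empty-vector replicate 1 or 4 or ADRA2A replicate 3 (edgeR adjusted p from 0.0606 to 0.0718). NDUFAB1, the acyl carrier subunit of complex I, did not pass (0.05, edgeR adjusted p = 0.512). Coenzyme Q synthesis had 2 higher and 2 lower of 13 (30.8% called), with the smallest p in each direction for COQ8B (0.23, edgeR adjusted p = 0.0152) and COQ2 (-0.22, edgeR adjusted p = 0.00755).

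The citric acid cycle and import lists held more lower than higher calls. Of 19 genes of pyruvate dehydrogenase and the citric acid cycle, which supply NADH to complex I, 1 was higher and 9 lower (52.6% called, against 42.7% of all genes tested, median -0.14). IDH3B, a subunit of the NAD-dependent isocitrate dehydrogenase, fell from 98.5 ± 2.08 to 71.8 ± 3.43 CPM (SD, n = 4, log2 difference -0.45, SE 0.044, edgeR adjusted p = 6.80e-08), and the single higher gene was the pyruvate carrier MPC2 (0.21, edgeR adjusted p = 0.00611). The import list of 26 genes joined protein import and the outer membrane with the inner-membrane carriers SLC25A3 to SLC25A6. Of these 26, 2 were higher and 12 lower (53.8% called, median -0.11). SLC25A5, which exchanges ADP for ATP across the inner membrane, fell from 424 ± 19.7 to 349 ± 17.3 CPM (-0.28, edgeR adjusted p = 1.10e-05), and TIMM17B was higher (0.22, edgeR adjusted p = 0.0132), a call lost without ADRA2A replicate 3 (0.15, edgeR adjusted p = 0.0721).

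Among 6 of 8 hypoxia-linked genes tested, 0 were higher and 3 lower, so 3 of 6 were called, against 42.7% of all genes tested. For each direction the share of all genes tested was 21.6% higher and 21.1% lower. Whether these 6 genes lean to lower calls was not tested. BNIP3, a mitophagy receptor, fell from 160 ± 11.0 to 104 ± 7.38 CPM (SD, n = 4, log2 difference -0.62, SE 0.053, edgeR adjusted p = 1.27e-08). Of 7 tested uncoupling and antioxidant genes, 1 was higher and 2 lower (42.9% called): SOD2, the superoxide dismutase of the matrix, rose from 43.2 ± 3.62 to 67.0 ± 3.88 CPM (0.64, SE 0.059, edgeR adjusted p = 4.42e-08), and GPX4, which reduces lipid peroxides, fell from 88.7 ± 2.68 to 74.7 ± 3.33 CPM (-0.25, edgeR adjusted p = 1.45e-04). Differences between these lists and the subunits were not tested.

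**Figure D5:**
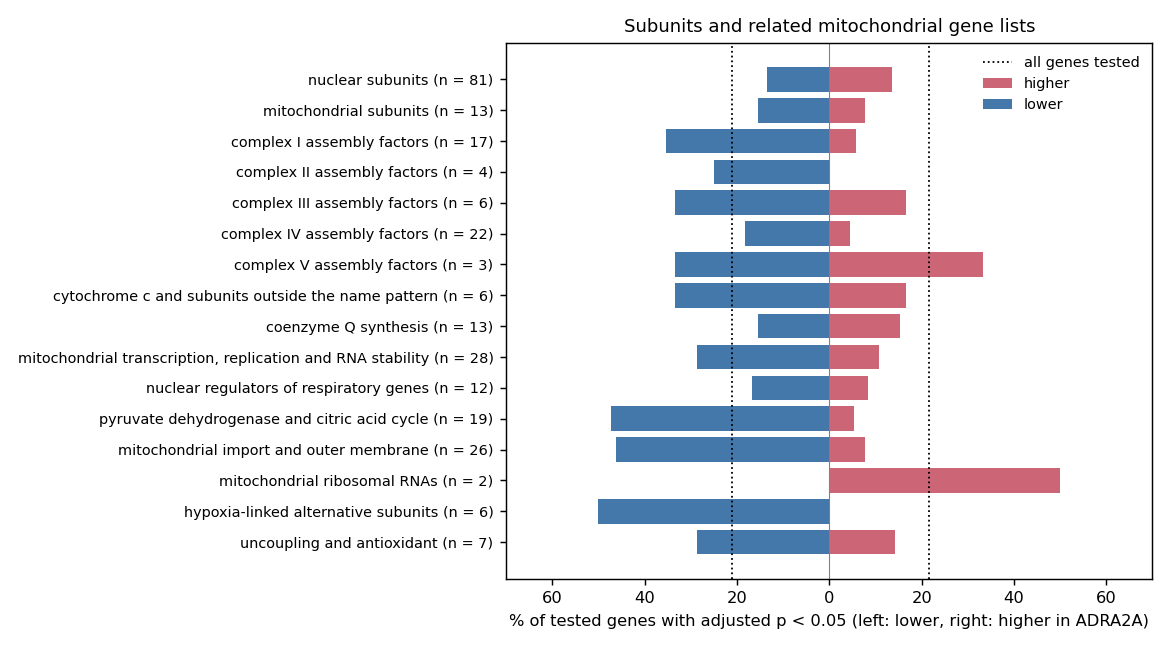
Share of the tested genes of each list that passed the threshold (x axis, percent; lower calls to the left, higher calls to the right), for the subunits and for lists of related mitochondrial genes, with the number tested beside each name. Dotted lines mark the shares over all genes tested, 21.6% higher and 21.1% lower. Every list drawn but the mitochondrial ribosomal RNAs reaches farther to the left than the nuclear subunits (11 lower of 81). For the factors of complexes II and V this rests on 1 lower call each. The list of nuclear copies of mitochondrial genes (0 lower of 3 tested) is not drawn. The hypoxia-linked list (3 of 6), the citric acid cycle list (9 of 19) and the import list (12 of 26) reach farthest.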

How the data were processed

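The authors deposited 1 table of estimated counts (RSEM expected counts) per gene for the 8 libraries, not scaled between libraries. The submitters' processing notes name cutadapt, STAR, RSEM, DESeq2 and the build hg38, while versions, annotation release and use of strand are not given in the sources used here. Counts were rounded, filtered with filterByExpr (14785 genes), scaled by TMM and tested with edgeR 4.0.16 (quasi-likelihood, group as the single term) in R 4.3.3, with Benjamini-Hochberg adjustment over all genes tested. The steps were tested on simulated data. CPM are TMM-scaled. Intervals and floors cover counting error only. Positions and lengths come from GENCODE 44 (all 100 members matched), promoters from RefSeq.

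1 member is counted but not reported singly here. The members and lists were chosen with earlier results of these data known. Named genes were all mitochondrial members, up to 3 higher and 3 lower nuclear members per complex with the smallest p, untested members, a fixed set (such as CYC1, TFAM and PPARGC1A), and the top gene each way of 15 related lists. Alternatives were DESeq2 1.42.0, RLE and upper quartile factors, limma 3.58.1 voom, no filter beyond 1 count, a filter at a mean of 50 counts, a replicate block, library sizes without mitochondrial genes, counts of nuclear copies added, neighbour windows, and leaving out each library.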

Additional observations from a re-analysis of the deposited data

Results flagged for a closer look

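Single libraries apart from their group were looked for in 140 groups of 4 libraries (named genes and sums), and 2 groups held a library far from the other 3. Chance flags about 1 in 20 such groups. ATP5PD in ADRA2A replicate 4 measured 83.5 CPM, while the other ADRA2A libraries measured 93.4, 93.7 and 94.1 CPM. The gap was 0.938 of the group's range, past Dixon's critical value for groups of 4, and the same library had the lowest summed level of nuclear members. NDUFAF5 in empty-vector replicate 3 measured 10.8 CPM, while the other empty-vector libraries measured 9.66, 9.70 and 9.62 CPM (gap 0.930 of the range). Both genes kept their lower call in each refit that left out 1 library.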

How the results depend on the processing

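Of 48 genes named by the rules above with a call, none changed direction in 770 refits, and 35 of those refits lost the call. Of 19 named without one, 312 refits gave 7 calls and 16 changes of sign. The number of nuclear members higher stayed between 8 and 12 and lower between 10 and 16. Mitochondrial members called higher, 1 as reported, were 0 with upper quartile factors, 2 with limma voom, 2 with the replicate block and 0 to 2 when 1 library was left out. Those called lower, 2 as reported, were 1 to 5 when 1 library was left out (1 without ADRA2A replicate 1, 5 without ADRA2A replicate 4). The cause was not tested. With upper quartile factors the log2 difference of MT-ND5 was -0.013 and that of ESRRA -0.008. Leaving out 1 library moved MT-ND5 between -0.015 and 0.025, MT-CYB between -0.003 and 0.042, MT-ATP8 between -0.20 and 0.034, NDUFAB1 between -0.003 and 0.103, NRF1 between -0.105 and 0.006, ESRRA between -0.016 and 0.066, and POLRMT between -0.065 and 0.028, so these 7 have no direction. Adding the counts of the nuclear copies changed no call of a mitochondrial member.

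Samples with the same replicate number had correlations of their deviations from -0.0421 to 0.0701. Samples with unlike numbers had -0.0737 to 0.112. Pairing by number was therefore not seen, though such correlations cannot exclude it. With the replicate block, 12 nuclear members were higher and 13 lower, 2 mitochondrial members were higher and 2 lower, and 6400 of all genes were called, against 6314 without it. Depth limits the isoforms at 0 counts, and at the smallest named steps, near 0.1, the call rests on single libraries for MT-CO1, MT-ND4 and SDHA.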
